A study of Arabidopsis thaliana with 6 samples.

Results

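The auxin signalling genes described here are 236 of the 32833 genes in the deposited table. They are the genes that carry the Gene Ontology term for the auxin-activated signalling pathway, after 5 of 241 such genes were set aside because their symbols begin with MYB, WRKY, ERF or ABC. They comprise 6 receptors of the TIR1/AFB family, 29 Aux/IAA genes, 23 auxin response factor (ARF) genes, 8 PIN genes, 50 SAUR genes, 1 GH3 gene and 119 others. Transcripts were counted by RNA sequencing of Arabidopsis thaliana seedlings grown for 8 days. There were 3 replicate libraries each of the wild type (WT) and of the mutant phod2. The table names the phod2 columns LIP1, and the title of the series is about LIP1p, a plastidial enzyme that makes the lipoyl cofactor, and phosphate. The labels do not give the accession of the wild type, the kind of mutation in phod2 or the number of lines. They mention high and low phosphate for the series as a whole and name no supply for a library, so phosphate entered no comparison.

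Auxin acts as a glue between an F-box receptor of the TIR1/AFB family and an Aux/IAA repressor, and the repressor is then ubiquitinated and degraded. This frees the ARF transcription factors that the repressors hold, and the ARFs change the transcription of fast auxin targets such as the SAUR, GH3 and Aux/IAA genes themselves. Where auxin accumulates is set by carriers, with AUX1 and the LAX proteins moving it into cells, PIN proteins moving it out, and PILS proteins holding it at the endoplasmic reticulum. In seedlings this system sets root growth and gravitropism, lateral root formation and the expansion of hypocotyl and leaf cells.

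Library totals ran from 17319308 to 22417595 counted reads, and 20169 genes had enough reads to be tested. LIP1P stood at 22.3, 20.9 and 23.2 FPKM (fragments per kilobase of exon, scaled to the library total) in the WT libraries and at 13.95, 14.2 and 12.9 FPKM in the phod2 libraries, with a log2 fold change of -0.74 ± 0.06 (SE) and an edgeR adjusted p of 4.74e-15. Markers of shoot and root were both detected, as in whole seedlings. The 6 shoot markers summed to 24821 to 25256 FPKM in WT and to 25667 to 25936 FPKM in phod2. The most abundant, RBCS1A and CAB1, had means of 12207 and 9446 FPKM in WT and did not pass the test. RBCS1B and CAB3 were higher (log2 fold changes 0.23 and 0.21), LHCB2.1 was lower (-0.36), and 3 of the 6 did not pass. The 8 root hair markers were all lower in phod2 and summed to 41.18 to 46.95 FPKM in WT against 13.44 to 14.61 FPKM in phod2. Of the 6 endodermis markers 4 were lower, with sums of 97.93 to 107.7 FPKM in WT against 47.05 to 50.92 FPKM in phod2, while SCR and SHR, which specify that layer, did not pass the test. Of the 4 root cap markers 2 of the 3 tested were lower, the summed level was 1.55 to 2.75 FPKM in WT and 0.76 to 1.46 FPKM in phod2, and WOX5, the marker of the quiescent centre, did not pass. None of these root and shoot markers was at 0 in all libraries. In whole seedlings, fewer cells of a type and less RNA per cell cannot be told apart.

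As a set the auxin signalling genes differed between the genotypes about as often as other genes did, and they moved in both directions. Of the 236 genes 192 were tested, 18 had no read in any library, and the remaining 26 had too few. By the quasi-likelihood test of edgeR at an adjusted p of 0.05 or less, 47 were higher in phod2 (24.5%) and 45 were lower (23.4%), and 100 did not pass. With scaling to library totals alone 59 were higher and 39 lower, and over all tested genes 5476 and 4320 in place of 4214 and 4958. Over all tested genes 45.5% passed, 20.9% in the direction of phod2 and 24.6% in the direction of WT. The WT and phod2 libraries did not overlap for 105 of the 192 genes (54.7%), against 54.1% of all tested genes. With a change of at least 2-fold as a further condition, 7 were higher and 10 lower (8.85%), against 7.51% of all tested genes, of which 1.79% were higher and 5.72% lower. The median log2 fold change was 0.01 over the 192 genes and 0.01 over all tested genes. By mean level, the share that passed was 43.5% below 1 FPKM against 37.1% of all tested genes there, 38.3% against 40.4% from 1 to 5 FPKM, 48.65% against 42.9% from 5 to 20 FPKM, and 58.3% against 56.5% above 20 FPKM.

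**Figure D1:**
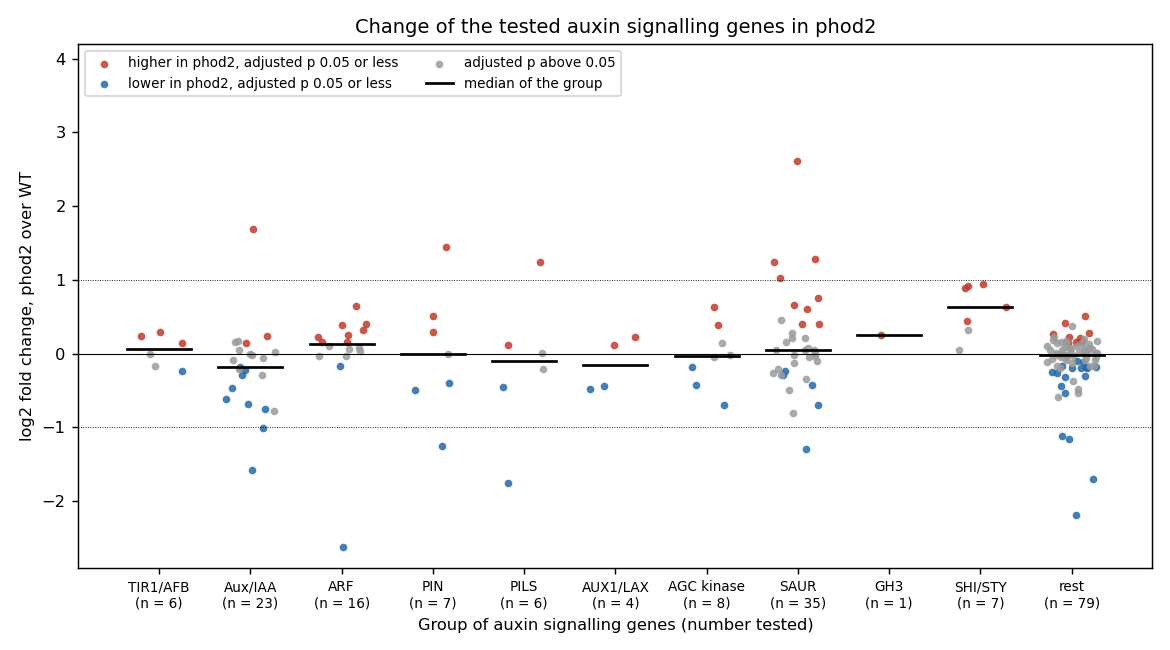
Log2 fold change of each tested auxin signalling gene, phod2 over WT, by group, with 3 libraries per genotype. Points are genes, coloured by the edgeR test, black lines are medians, and dotted lines mark 2-fold. The Aux/IAA median lies below 0 (-0.18) and the ARF median above it (0.13), while PIN and PILS genes spread in both directions. The SHI/STY median (0.64) is of a group set apart after its values had been seen, and nothing is read from it.

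The 17 genes that changed at least 2-fold belonged to most families. The 7 higher ones were the repressor IAA29, the carriers PIN5 and PILS4, and SAUR12, SAUR22, SAUR41 and SAUR54. The 10 lower ones were the repressors IAA6 and IAA17, the transcription factor ARF20, the carriers PIN2 and PILS5, SAUR36, the transporter UMAMIT4, the NAC genes NAC074 and AT3G12977, and the lipase GLIP2. Among them only SAUR41 of the higher genes and IAA17, PIN2, PILS5 and SAUR36 of the lower ones reached 5 FPKM in at least 3 libraries.

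The auxin receptors differed by small amounts, and the most abundant of them were higher in phod2. TIR1 (AT3G62980, chr3:23273065-23276630, minus strand), the founding receptor, measured 46.3, 48.1 and 48.5 FPKM in WT and 54.2, 55.2 and 52.97 FPKM in phod2. Its libraries did not overlap, and its log2 fold change was 0.14 ± 0.03 (SE, edgeR adjusted p = 1.92e-04). AFB5, one of the pair of receptors that also perceive the synthetic auxin picloram, measured 36.8, 35.98 and 36.2 FPKM in WT and 43.01, 44.98 and 43.9 FPKM in phod2, a log2 fold change of 0.24 ± 0.04 with an edgeR adjusted p of 1.05e-07. AFB3 rose from a mean of 15.9 ± 0.305 FPKM to 19.9 ± 0.983 FPKM (SD, n = 3), also without overlap, although 27.6% of its length lies under another gene. AFB1, whose protein acts in fast responses at the cytoplasm, was the receptor that fell, from 14.2, 13.9 and 13.8 FPKM to 12.1, 12.4 and 12.2 FPKM, a log2 fold change of -0.23 ± 0.06 with an edgeR adjusted p of 8.25e-04. AFB2 was close to equal in mean, with 27.7 ± 0.678 FPKM in WT and 28.3 ± 2.75 FPKM in phod2, and its phod2 libraries enclosed all WT values. AFB4, the partner of AFB5, had a log2 fold change of -0.17 ± 0.08 and did not pass (edgeR adjusted p = 0.0665), but it passed when phod2 replicate 1 was left out (adjusted p = 0.0323), which makes 2 lower receptors in place of 1. In all, 3 receptors were higher, 1 was lower and 2 did not pass, where 20.9% of all tested genes were higher and 24.6% lower.

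Transcripts of TIR1, AFB1, AFB2 and AFB3 carry a site for the microRNA miR393, which holds receptor levels down. The mature microRNA and the best-paired window in each receptor transcript are shown. The seed (bases 2 to 8 of the microRNA) and the bases opposite it are in capitals. Sequences were read from the RefSeq genome TAIR10.1 and are written as RNA, 5′ to 3′.
miR393a-5p: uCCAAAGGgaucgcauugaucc
TIR1: gagacaaugcgaucCCUUUGGa
AFB1: gagaccaugcgaucCCUUUGGa
AFB2: gaaacaaugcgaucCCUUUGGa
AFB3: gaaacaaugcgaucCCUUUGGa
The microRNA lies at chr2:16652111-16652132, plus strand. The windows lie at chr3:23273727-23273748, minus strand (TIR1), chr4:1405341-1405362, minus strand (AFB1), chr3:9870237-9870258, plus strand (AFB2) and chr1:4369085-4369106, minus strand (AFB3), all inside the coding sequence. All 4 windows pair with the whole seed. The AFB2 and AFB3 windows have the same letters, with 2 unpaired bases each. The TIR1 window has 2 unpaired bases and 1 G-U pair, and that of AFB1 has 3 and 1. The microRNA itself was not measured, and its precursors MIR393A and MIR393B had too few reads to be tested. Its part in the receptor changes was not tested.

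Among Aux/IAA repressors the lower genes outnumbered the higher ones. Of 23 tested genes 9 were lower (39.1%), 3 were higher (13.0%) and 11 did not pass, and the median log2 fold change was -0.18, below 0 under every setting tried. With scaling to library totals alone 5 were higher and 9 lower. The background shares are those given above, 24.6% lower and 20.9% higher over all tested genes. The remaining 6 genes, IAA5, IAA15, IAA20, IAA31, IAA33 and IAA34, had too few reads.

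Among the lower Aux/IAA genes were IAA17, IAA14, IAA3, IAA28 and IAA19, while IAA7, described below, was higher. IAA17 (AT1G04250, chr1:1136078-1138663, plus strand), also called AXR3, controls root gravitropism and root hairs. It measured 28.4, 31 and 30.98 FPKM in WT and 14.3, 16.5 and 15.3 FPKM in phod2, so that every phod2 library lay far below every WT library. Its log2 fold change was -1.01 ± 0.06 (SE) with an edgeR adjusted p of 7.58e-21. IAA14 (AT4G14550, chr4:8347822-8350263, minus strand), or SOLITARY-ROOT, blocks the first divisions of lateral roots when it is stabilised. It measured 5.41, 4.07 and 4.7 FPKM in WT and 3.06, 3.15 and 2.96 FPKM in phod2, a log2 fold change of -0.68 ± 0.12 with an edgeR adjusted p of 4.28e-06. IAA3, or SHY2, which limits the size of the root meristem, fell from 17.8, 18.7 and 19 FPKM to 12.8, 12 and 12.3 FPKM, with a log2 fold change of -0.62 ± 0.07. A gene on the other strand overlaps 41.5% of IAA3, and use of strand in the counting is not given in the sources used here. IAA28, which acts in the priming of lateral roots, fell from 14.1, 13.96 and 12.1 FPKM to 10.9, 9.54 and 9.58 FPKM, with a log2 fold change of -0.46 ± 0.08. IAA19, or MSG2, a repressor in hypocotyl bending and lateral root formation, fell from 6.09, 4.4 and 4.39 FPKM to 2.86, 2.71 and 3.59 FPKM, with a log2 fold change of -0.74 ± 0.17. None of these genes had overlapping libraries.

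IAA6, the closest relative of IAA19, had the largest fitted decrease at a low level, with 33, 12 and 23 reads in the WT libraries and 8, 6 and 8 reads in the phod2 libraries. The fitted log2 fold change was -1.57 ± 0.39 with an edgeR adjusted p of 6.64e-04. The fall was small for the abundant repressors IAA9 and IAA2 and for IAA13. IAA9, which acts in leaf shape, went from a mean of 124 ± 1.64 FPKM to 109 ± 2.76 FPKM (SD, n = 3, log2 fold change -0.23). IAA2 had a log2 fold change of -0.18, and IAA13 of -0.29 with 38.4% of its length under another gene. IAA30, which did not pass (edgeR adjusted p = 0.101), had a log2 fold change of -0.77 ± 0.39 at under 1 FPKM.

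The higher Aux/IAA genes were IAA29, IAA7 and IAA26. IAA29 (AT4G32280, chr4:15583332-15584903, plus strand), a repressor tied to shade and light responses of the hypocotyl, had 18, 9 and 10 reads in the WT libraries and 39, 34 and 45 reads in the phod2 libraries. This corresponds to 0.63, 0.41 and 0.36 FPKM against 1.69, 1.37 and 1.67 FPKM, without overlap. Its log2 fold change was 1.70 ± 0.30 with an edgeR adjusted p of 3.06e-06. IAA7, or AXR2, rose from a mean of 61.7 ± 1.18 FPKM to 70.5 ± 2.84 FPKM, and IAA26 from 15 ± 1.08 to 18.2 ± 0.933 FPKM (SD, n = 3). IAA16, the most abundant member with IAA9, measured 124, 121 and 124 FPKM in WT and 129, 128 and 129.6 FPKM in phod2. Its libraries did not overlap, but its log2 fold change of 0.03 ± 0.03 did not pass (edgeR adjusted p = 0.456), and it passed with scaling to library totals alone (adjusted p = 0.0326). IAA7 and IAA14, close relatives, thus differed in opposite directions, while the level of IAA7 was over 10 times that of IAA14 in every library.

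**Figure D2:**
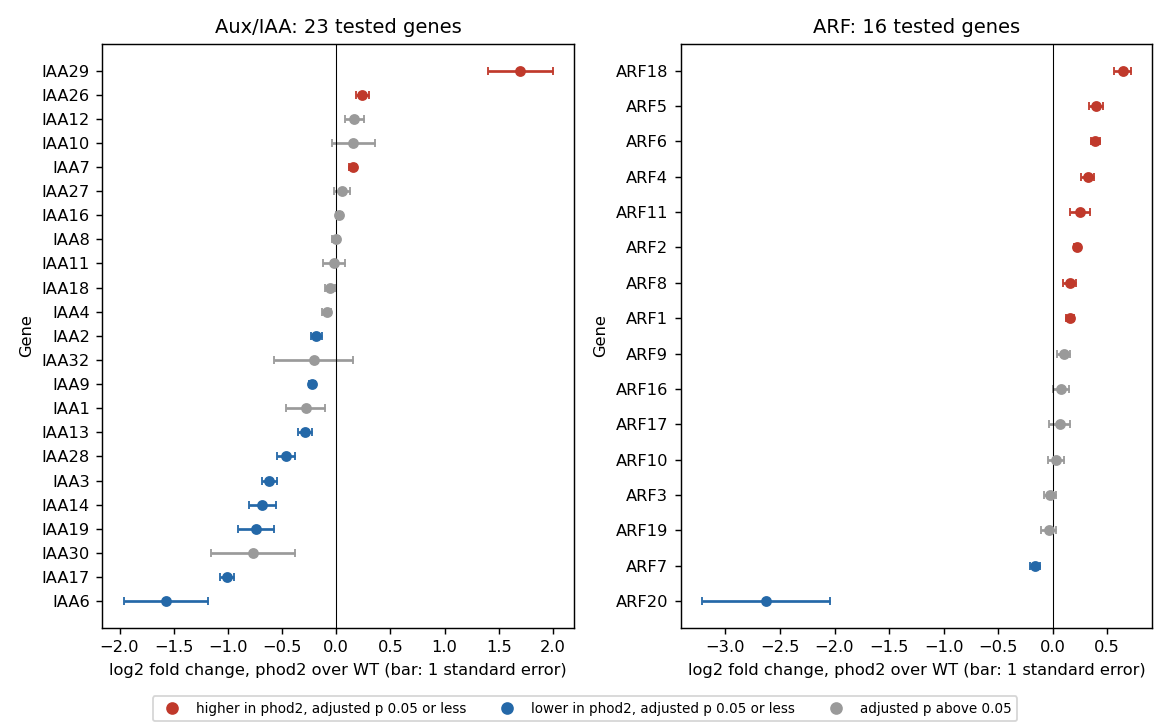
Log2 fold change with 1 standard error of each tested Aux/IAA gene (left) and ARF gene (right), phod2 over WT, ordered by change and coloured by the edgeR test. In the Aux/IAA panel 9 genes lie below 0 past the test and 3 above it, and in the ARF panel 8 lie above and 2 below.

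The part of an Aux/IAA protein that the receptor and auxin grip is a short degron around the residues glycine, tryptophan, proline, proline. The 4 codons were searched in frame in the RefSeq coding sequences of all 29 genes, by the letters TGGCCNCC after a glycine codon. They were found once in 23 genes and in none of IAA20, IAA30, IAA31, IAA32, IAA33 and IAA34. Among tested genes, those with the core numbered 21, of which 3 were higher and 9 lower, and those without it numbered 2, IAA30 and IAA32, neither of which passed, and 38.8% of IAA32 lies under another gene. The stretches of the genes that the account above turns on are shown with the 4 core codons in capitals.
IAA17: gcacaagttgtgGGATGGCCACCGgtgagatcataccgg
IAA14: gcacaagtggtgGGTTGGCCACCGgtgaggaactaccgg
IAA7: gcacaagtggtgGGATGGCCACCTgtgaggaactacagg
IAA3: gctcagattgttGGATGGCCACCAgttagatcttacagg
IAA28: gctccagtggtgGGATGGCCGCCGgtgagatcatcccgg
IAA19: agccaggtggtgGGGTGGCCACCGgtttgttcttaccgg
IAA6: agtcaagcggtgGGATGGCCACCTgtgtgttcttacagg
IAA29: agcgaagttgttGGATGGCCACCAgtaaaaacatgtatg
They lie at chr1:1136935-1136973, plus strand (IAA17), chr4:8349472-8349510, minus strand (IAA14), chr3:8195565-8195603, plus strand (IAA7), chr1:1129013-1129051, minus strand (IAA3), chr5:9033809-9033847, plus strand (IAA28), chr3:5264304-5264342, plus strand (IAA19), chr1:19673317-19673355, minus strand (IAA6) and chr4:15583939-15583977, plus strand (IAA29) in TAIR10.1. Each lies within a single exon. All 8 encode the same 4 residues there because the search required them, so nothing about the direction of change is read from this.

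ARFs bind the auxin response element, with TGTCTC as the form first described and TGTCGG as a form bound with higher affinity. Windows of 300 bases, from 250 bases before to 50 bases after each gene start, were searched on both strands. TGTCTC was in 12 of 29 Aux/IAA windows (41.4%), in 1 of 23 ARF windows (4.3%), in 8 of 50 SAUR windows (16%) and in 14.3% of the 32546 windows of all genes on the nuclear chromosomes. TGTCGG was in 6 Aux/IAA windows (20.7%) and in 5.0% of all windows. By direction of change the shares with TGTCTC lay close together, with a match in 7 of 47 windows of the higher auxin signalling genes (14.9%), in 7 of 45 of the lower ones (15.6%) and in 16 of 100 of those that did not pass (16%). TGTCGG was in 0 of 47 windows of the higher genes, in 3 of 45 of the lower ones (6.7%) and in 9 of 100 of those that did not pass (9%). TGTC alone, which is part of both, was in 81.4% of all windows. IAA1, IAA8, IAA30 and IAA32 hold TGTCTC, were tested and did not pass. The 3 Aux/IAA genes that passed the test and hold TGTCTC were lower in phod2, as were 9 of all 12 Aux/IAA genes that passed. The windows of these 3 are shown with the match or its reverse complement in capitals.
IAA19: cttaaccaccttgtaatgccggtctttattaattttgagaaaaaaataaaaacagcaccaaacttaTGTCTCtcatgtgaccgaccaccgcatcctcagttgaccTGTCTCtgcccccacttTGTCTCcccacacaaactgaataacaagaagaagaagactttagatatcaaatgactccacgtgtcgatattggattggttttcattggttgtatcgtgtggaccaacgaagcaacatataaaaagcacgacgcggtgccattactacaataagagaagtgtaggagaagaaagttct
IAA6: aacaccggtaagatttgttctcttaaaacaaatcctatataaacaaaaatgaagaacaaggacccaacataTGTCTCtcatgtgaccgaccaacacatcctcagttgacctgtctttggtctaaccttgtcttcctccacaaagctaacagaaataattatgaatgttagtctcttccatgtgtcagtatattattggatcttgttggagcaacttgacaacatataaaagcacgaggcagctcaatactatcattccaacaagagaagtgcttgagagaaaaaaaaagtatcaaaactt
IAA28: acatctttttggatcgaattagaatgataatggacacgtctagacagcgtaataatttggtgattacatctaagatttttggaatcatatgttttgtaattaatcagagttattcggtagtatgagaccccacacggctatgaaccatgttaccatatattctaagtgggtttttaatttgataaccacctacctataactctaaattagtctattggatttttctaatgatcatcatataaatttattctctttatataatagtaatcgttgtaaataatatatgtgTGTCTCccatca
They lie at chr3:5263751-5264050, plus strand (IAA19), chr1:19673603-19673902, minus strand (IAA6) and chr5:9032954-9033253, plus strand (IAA28). The IAA19 window holds 3 matches and the others 1 each. The IAA28 match lies in the last 50 bases of its window, after the annotated gene start. The windows of IAA6 and IAA19 share an identical run of 23 bases around a match, which begins 181 bases before the start of IAA6 and 186 bases before that of IAA19. The longest run that either shares with IAA28 is 8 or 9 bases. The windows of IAA17, IAA3 and IAA29 held none of these motifs. A match is a run of letters and was not tested as a binding site.

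Among ARF genes the higher ones outnumbered the lower ones. Of 16 tested ARF genes 8 were higher in phod2 (50%, against 20.9% of all tested genes), 2 were lower and 6 did not pass, with a median log2 fold change of 0.13, above 0 under every setting tried. Higher ARF genes numbered 6 with DESeq2 and 7 to 9 with a library left out. Of the 7 ARF genes that were not tested 6 had no read in any library. The changes of the higher genes were small and ran from 0.16 to 0.64 on the log2 scale.

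Activating ARFs are thought to drive auxin targets, and 3 of the 5 known as activators rose. So did 8 of all 16 tested ARF genes, and 20.9% of all tested genes were higher. ARF6 (AT1G30330, chr1:10685822-10690988, minus strand), which acts with ARF8 in hypocotyl and flower growth, measured 16.5, 16.3 and 16.1 FPKM in WT and 21.4, 22.1 and 22.6 FPKM in phod2. Its log2 fold change was 0.39 ± 0.04 (SE) with an edgeR adjusted p of 7.89e-13, and no library overlapped. ARF5, or MONOPTEROS, which sets up the embryonic root and the veins, measured 6.63, 6.55 and 7.06 FPKM in WT and 9.31, 9.29 and 8.86 FPKM in phod2, a log2 fold change of 0.40 ± 0.06 with an edgeR adjusted p of 2.20e-07. ARF8 rose by 0.16 ± 0.06 on the log2 scale (edgeR adjusted p = 0.0233), but it did not pass without WT replicate 2 (adjusted p = 0.177) or without phod2 replicate 3 (adjusted p = 0.184), nor with DESeq2 on all libraries (adjusted p = 0.0704). ARF7 and ARF19, which together drive lateral root formation, did not rise. ARF7 measured 13.3, 13.04 and 12.6 FPKM in WT and 11.7, 12.1 and 12.1 FPKM in phod2, a log2 fold change of -0.16 ± 0.05 with an edgeR adjusted p of 0.00282, which did not pass with limma on log2(FPKM + 1) (adjusted p = 0.104). ARF19 stood at 5.59 ± 0.232 FPKM in WT and 5.61 ± 0.513 FPKM in phod2 (SD, n = 3) with overlapping libraries.

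Repressing ARFs rose as well. ARF2 (AT5G62000, chr5:24910191-24915395, plus strand), the most abundant ARF and a repressor that limits organ size, measured 72.3, 72.2 and 72.6 FPKM in WT and 89.9, 84.2 and 86.4 FPKM in phod2, a log2 fold change of 0.22 ± 0.03 with an edgeR adjusted p of 2.74e-10. ARF18 had the largest rise of the family and measured 5.64, 4.98 and 5.64 FPKM in WT and 8.57, 8.78 and 8.87 FPKM in phod2, a log2 fold change of 0.64 ± 0.08 with an edgeR adjusted p of 2.10e-10. ARF4, which acts in organ polarity, rose by 0.32 ± 0.06, ARF11 by 0.25 ± 0.09 and ARF1 by 0.16 ± 0.04 on the log2 scale (SE), all without overlap. ARF3 and ARF9 did not pass. ARF20, one of a cluster of near-identical genes on chromosome 1, had 17, 9 and 14 reads in the WT libraries and 3, 2 and 1 reads in the phod2 libraries, a log2 fold change of -2.63 ± 0.59. Its transcript matches those of ARF15, ARF21 and ARF22 at 95.2% to 97.3% identity over 58.6% of its length. Those 3 genes had no read in any library, so its reads are uncertain in their assignment.

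The microRNA miR167 targets ARF6 and ARF8, and miR160 targets ARF10, ARF16 and ARF17. Their mature sequences and the best-paired windows of the targets are shown so that the sites can be read beside the values, with the seed and its opposite bases in capitals.
miR167a-5p: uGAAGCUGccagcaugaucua
ARF6: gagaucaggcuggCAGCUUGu
ARF8: uagaucaggcuggCAGCUUGu
miR160a-5p: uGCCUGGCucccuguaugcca
ARF10: aggaauacagggaGCCAGGCa
ARF16: ggguuuacagggaGCCAGGCa
ARF17: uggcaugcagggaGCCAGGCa
The windows lie in coding sequence at chr1:10686478-10686498, minus strand (ARF6), chr5:14633841-14633861, plus strand (ARF8), chr2:12115741-12115761, plus strand (ARF10), chr4:14704141-14704161, minus strand (ARF16) and chr1:29274189-29274209, plus strand (ARF17), and the microRNAs at chr3:8108090-8108110, plus strand and chr2:16340282-16340302, plus strand. The ARF6 and ARF8 windows differ only in their first letter and have 4 and 3 unpaired bases, of which 1 in each lies opposite the seed. Both genes were higher in phod2, ARF8 with the limits given above. The miR160 windows pair with the whole seed, and none of the 3 genes passed edgeR, with log2 fold changes of 0.03 ± 0.07 for ARF10, 0.08 ± 0.07 for ARF16 and 0.06 ± 0.10 for ARF17 (SE). The precursors MIR167A, MIR167B, MIR167D and MIR160C were tested and did not pass. TAS3 makes small RNAs that act on ARF2, ARF3 and ARF4. It fell from a mean of 17.3 ± 0.867 FPKM to 15.3 ± 0.856 FPKM (SD, n = 3, edgeR adjusted p = 0.0243). ARF2 and ARF4 rose and ARF3 did not pass. The part of TAS3 and of these microRNAs in the ARF changes was not tested.

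PIN auxin efflux carriers split by member. Of 7 tested genes 3 were higher, 3 lower and 1 did not pass, where 20.9% of all tested genes were higher and 24.6% lower. PIN8 had too few reads. Among the carriers of the plasma membrane, PIN2 (AT5G57090, chr5:23100516-23105228, plus strand), which moves auxin through the root epidermis and cortex in gravitropism, measured 8.53, 8.38 and 8.78 FPKM in WT and 3.69, 3.46 and 3.92 FPKM in phod2. All phod2 libraries lay far below all WT libraries. Its log2 fold change was -1.25 ± 0.08 (SE) with an edgeR adjusted p of 1.85e-21. The root hair and endodermis markers given above were lower in the same libraries, and their part in this result was not tested.

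PIN3 (AT1G70940, chr1:26742940-26746469, plus strand), which redirects auxin in the root cap and the hypocotyl, measured 53.6, 53.2 and 50.4 FPKM in WT and 37.7, 37.3 and 39.4 FPKM in phod2, a log2 fold change of -0.50 ± 0.03 with an edgeR adjusted p of 1.87e-19. PIN7, its close relative in the root cap and stele, went the other way, from 32.8, 32.6 and 33.7 FPKM to 42.5, 41.2 and 41.9 FPKM, a log2 fold change of 0.30 ± 0.03 with an edgeR adjusted p of 1.52e-11. In WT the level of PIN3 was above that of PIN7 in every library, and in phod2 it was below it in every library. PIN4, with 38.9 ± 1.25 FPKM in WT and 40.1 ± 0.745 FPKM in phod2 (SD, n = 3), did not pass.

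PIN5 and PIN6 act wholly or partly at the endoplasmic reticulum, and both were higher. PIN5 (AT5G16530, chr5:5400600-5402845, plus strand) had 22, 20 and 22 reads in the WT libraries and 51, 68 and 53 reads in the phod2 libraries, which is 0.66, 0.77 and 0.68 FPKM against 1.9, 2.35 and 1.7 FPKM. The log2 fold change was 1.45 ± 0.24 with an edgeR adjusted p of 6.43e-07. PIN6 rose from 1.45, 1.83 and 1.23 FPKM to 2.39, 2.11 and 2.07 FPKM, a log2 fold change of 0.52 ± 0.16. Levels of both stayed at or below 2.39 FPKM, far under those of PIN3, PIN4 and PIN7.

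**Figure D3:**
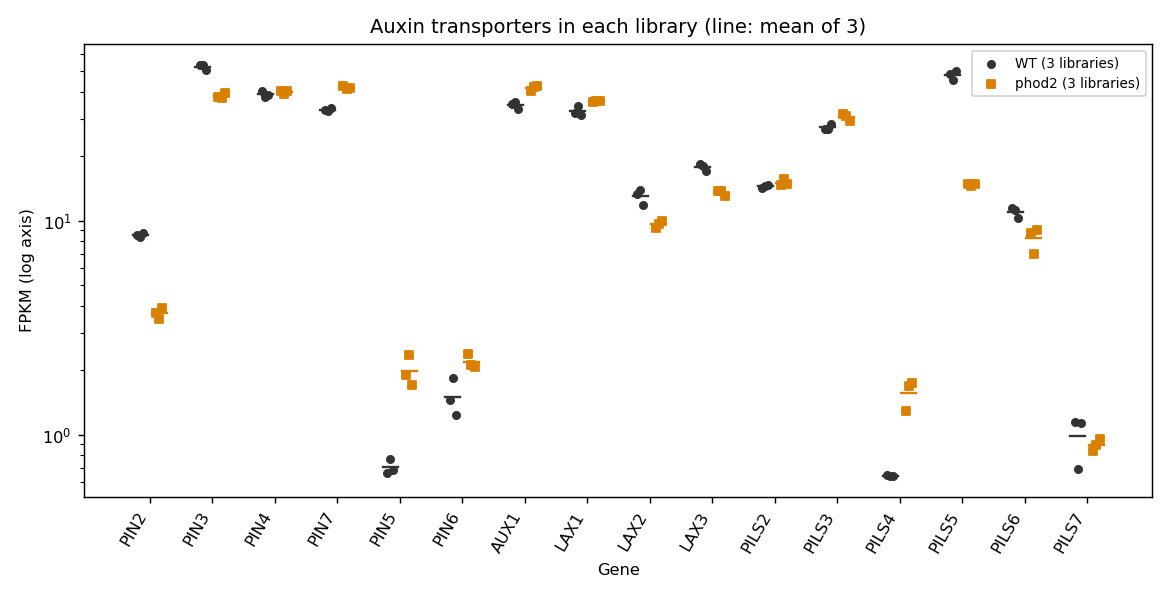
Level of 16 auxin carriers in each library, in FPKM on a log axis, with black circles for the 3 WT libraries, orange squares for the 3 phod2 libraries and lines for their means. PILS5 and PIN2 show the widest gaps downward, PIN5 and PILS4 the widest upward, and PIN3 and PIN7 change places.

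PILS carriers hold the member with the lowest adjusted p of all auxin signalling genes. PILS5 (AT2G17500, chr2:7606728-7609278, plus strand), which sequesters auxin at the endoplasmic reticulum and lowers nuclear auxin signalling, measured 48.5, 45.7 and 50.1 FPKM in WT and 14.8, 14.5 and 14.8 FPKM in phod2. The phod2 libraries were closely alike and lay far below all WT libraries. The log2 fold change was -1.76 ± 0.05 (SE) with an edgeR adjusted p of 6.20e-38. PILS6 fell by less, from 11.5, 11.2 and 10.3 FPKM to 8.8, 6.96 and 9.06 FPKM (log2 fold change -0.45 ± 0.08). PILS3 rose by 0.11 ± 0.04 on the log2 scale. PILS4, a low member, rose from 0.65, 0.64 and 0.64 FPKM to 1.29, 1.68 and 1.75 FPKM (log2 fold change 1.25 ± 0.24). PILS2 and PILS7 did not pass, and PILS1 had no read.

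The 4 influx carriers all passed the test, as did 45.5% of all tested genes, and they moved in pairs of opposite direction. AUX1, the main influx carrier of the root tip, measured 35.1, 35.8 and 33.2 FPKM in WT and 40.2, 42.03 and 42.4 FPKM in phod2, a log2 fold change of 0.22 ± 0.04 with an edgeR adjusted p of 5.08e-07. LAX1 rose by 0.12 ± 0.04 on the log2 scale. LAX3, which loads auxin into the cells that overlie a new lateral root, measured 18.4, 18 and 17.04 FPKM in WT and 13.7, 13.8 and 13.1 FPKM in phod2, a log2 fold change of -0.44 ± 0.06 with an edgeR adjusted p of 1.29e-09. LAX2, which acts in leaf veins, fell from 13.3, 13.96 and 11.8 FPKM to 9.24, 9.6 and 9.97 FPKM, a log2 fold change of -0.47 ± 0.07.

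Kinases that phosphorylate PIN proteins also divided, with 2 higher, 3 lower and 3 not passing of 8. Over all tested genes 20.9% were higher and 24.6% lower. D6PKL1 fell from 30.6, 29.5 and 28.7 FPKM to 22.9, 24.2 and 20.9 FPKM, a log2 fold change of -0.43 ± 0.05, and D6PK by a smaller amount, with a log2 fold change of -0.17 ± 0.04. PID, or PINOID, had a log2 fold change of 0.39 ± 0.17 with an edgeR adjusted p of 0.0493, close to the threshold. It did not pass without WT replicate 1 or 3, nor without any phod2 replicate, with adjusted p from 0.054 to 0.144 there. WAG1 and WAG2, low relatives of PID, had log2 fold changes of 0.63 ± 0.24 and -0.70 ± 0.27, and the WAG2 libraries of both genotypes overlapped.

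SAUR genes, small auxin-induced RNAs that promote cell expansion through the plasma membrane proton pump or mark its target tissues, rose in some members and fell in others. Of 35 tested genes 9 were higher (25.7%), 5 were lower (14.3%) and 21 did not pass, and of the other 15 of the 50, 5 had no read in any library and 10 had too few. The share that passed was 40%, near the 45.5% of all tested genes. Without WT replicate 1 the lower genes numbered 3 in place of 5.

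SAUR54 (AT1G19830, chr1:6852116-6852945, plus strand) had the largest rise of all auxin signalling genes, with 6, 4 and 3 reads in the WT libraries and 19, 26 and 35 reads in the phod2 libraries. This gave a log2 fold change of 2.61 ± 0.42 (SE) with an edgeR adjusted p of 3.59e-07. SAUR41 (AT1G16510, chr1:5644572-5645443, minus strand), which is known from the root meristem and hypocotyl, stood higher and measured 4.04, 3.77 and 3.6 FPKM in WT and 8.28, 7.22 and 8.37 FPKM in phod2, a log2 fold change of 1.02 ± 0.14 with an edgeR adjusted p of 2.09e-08. Its relatives SAUR71 and SAUR72 rose with it. SAUR71 measured 4.83, 5.12 and 5.29 FPKM in WT and 9.51, 9.03 and 8.11 FPKM in phod2 (log2 fold change 0.76 ± 0.14), and SAUR72 3.38, 4.31 and 3.69 FPKM and 6.03, 5.02 and 6.6 FPKM (log2 fold change 0.60 ± 0.15). These 3 genes thus differed without overlap between genotypes. SAUR6, SAUR51 and SAUR59 rose by 0.41, 0.66 and 0.40 on the log2 scale.

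SAUR12 and SAUR22 rested on few reads. SAUR12 had 13, 7 and 3 reads in WT and 11, 26 and 17 in phod2, and its call was lost without WT replicate 3 (adjusted p = 0.135) or phod2 replicate 2 (adjusted p = 0.16). SAUR22 had 6, 5 and 6 reads in WT and 17, 11 and 13 in phod2, and its call was lost without WT replicate 1 (adjusted p = 0.0546) or phod2 replicate 1 (adjusted p = 0.114). Neither passed with DESeq2.

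SAUR36 (AT2G45210, chr2:18641563-18642739, plus strand), a gene tied to leaf senescence, fell from 5.31, 5.94 and 6.64 FPKM to 2.08, 2.81 and 2.55 FPKM, a log2 fold change of -1.30 ± 0.15 with an edgeR adjusted p of 1.03e-10. SAUR50, the most abundant SAUR gene with the term, fell from 32.5, 34.3 and 36.3 FPKM to 28.8, 26.2 and 24.5 FPKM, a log2 fold change of -0.42 ± 0.07 with an edgeR adjusted p of 2.82e-07. SAUR66 had a log2 fold change of -0.70 ± 0.21. SAUR14 and SAUR31 fell by under 0.3 on the log2 scale, with overlapping libraries, and 57.2% of SAUR31 lies under another gene.

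Many SAUR genes lie in tandem arrays, and the calls within these arrays varied. For comparison, 45.5% of all tested genes passed, with 20.9% higher and 24.6% lower in phod2. In the array from SAUR61 to SAUR67 on chromosome 1 (chr1:10301377-10323239) 1 of 6 tested genes was lower and the others did not pass. In the array from SAUR19 to SAUR24 on chromosome 5 (chr5:5962773-5984308), whose members promote hypocotyl elongation, 1 of 5 was higher, and in that from SAUR26 to SAUR29 on chromosome 3 none of 3 passed. The pair SAUR6 and SAUR12 on chromosome 2 were both higher. In the array from SAUR49 to SAUR5 on chromosome 4, SAUR50 and the neighbouring SAUR49 were lower and the other 4 tested genes did not pass. In that from SAUR13 to SAUR16 on the same chromosome 1 of 3 was lower. SAUR63 and SAUR67 have transcripts 95.3% identical over 81.4% of the length of the first and 60% of the second, so their reads are uncertain in their assignment, and 100% of SAUR63 lies under a gene on the other strand.

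The table holds 29 further SAUR genes without the pathway term. Of all 79 SAUR genes listed there, 51 were tested, of which 10 were higher and 11 lower. Of the 16 tested genes outside the term 1 was higher and 6 were lower, where 20.9% and 24.6% of all tested genes were, and the difference from the SAUR genes with the term was not tested. SAUR78, the most abundant of them, measured 97.4, 94.8 and 92.1 FPKM in WT and 60.2, 62.96 and 60.1 FPKM in phod2, a log2 fold change of -0.68 ± 0.04 with an edgeR adjusted p of 1.76e-23. SAUR37, SAUR55 and SAUR74 had log2 fold changes of -1.41 ± 0.20, -1.18 ± 0.13 and -1.16 ± 0.39, and SAUR76 of 1.02 ± 0.22 (SE).

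GH3 enzymes join amino acids to auxin or other acids and so remove or activate them. GH3.6 (AT5G54510, chr5:22130964-22133688, minus strand), also called DFL1, is the one with the pathway term and rose from 15.6, 14.5 and 16.4 FPKM to 17.9, 19.1 and 20.1 FPKM, a log2 fold change of 0.26 ± 0.06 (SE) with an edgeR adjusted p of 1.07e-04. Of all 18 GH3 genes listed in the table, 14 were tested, 4 were higher, 3 lower and 7 did not pass. Shares over all tested genes were 20.9% higher and 24.6% lower. DFL2, a member tied to light responses of the hypocotyl, fell from 5.66, 5.47 and 5.92 FPKM to 3.22, 2.68 and 2.54 FPKM, a log2 fold change of -1.06 ± 0.09 with an edgeR adjusted p of 1.00e-15. GH3.17, which conjugates auxin with glutamate, fell from 17.03, 17.4 and 15.9 FPKM to 12.9, 13.03 and 14.2 FPKM, a log2 fold change of -0.36 ± 0.05. GH3.3 and GH3.5, which respond to auxin in many tissues, did not pass, with log2 fold changes of 0.07 ± 0.10 and -0.15 ± 0.07. JAR1, which activates jasmonate and not auxin, had a log2 fold change of -0.16 ± 0.05.

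Genes of the SHI/STY family, zinc-finger transcription factors that activate YUCCA genes of auxin synthesis, all had positive fitted changes. Of 7 tested genes 5 were higher, none was lower and 2, SRS1 and SRS5, did not pass, with a median log2 fold change of 0.64, where 20.9% of all tested genes were higher and 24.6% lower. The family was set apart after its values had been seen, so nothing is read from this count. SHI (AT5G66350, chr5:26503115-26506809, minus strand) measured 0.87, 0.86 and 0.82 FPKM in WT and 1.7, 1.42 and 1.81 FPKM in phod2, a log2 fold change of 0.91 ± 0.18 with an edgeR adjusted p of 2.34e-05. SRS2, or STY2, measured 1.57, 1.61 and 1.45 FPKM in WT and 2.12, 2.97 and 2.31 FPKM in phod2, a log2 fold change of 0.64 ± 0.17. LRP1, a gene first seen in lateral root primordia, rose from 1.87, 1.78 and 1.35 FPKM to 2.49, 2.04 and 2.48 FPKM, a log2 fold change of 0.45 ± 0.15. SRS4 rose by 0.90 ± 0.34 and SRS7 by 0.94 ± 0.34 on the log2 scale, the latter with overlapping libraries. All 7 stayed at or below 2.97 FPKM in every library, and the transcript of SRS8, which was not tested, matches that of SRS1 at 95.4% identity over 51.3% of its length. STM, a gene of the shoot meristem, was higher in the same libraries, with 0.71, 0.64 and 0.98 FPKM in WT and 1.66, 1.48 and 2.16 FPKM in phod2. Its part in these results was not tested.

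The other 79 tested genes carry the term for varied reasons, and 9 were higher (11.4%), 18 were lower (22.8%) and 52 did not pass, against 20.9% higher and 24.6% lower over all tested genes. UMAMIT4 (AT3G18200, chr3:6234509-6236139, minus strand), a member of a family of amino acid transporters, had the strongest fall among them, from 5.12, 4.21 and 5.07 FPKM to 0.86, 1.06 and 1.31 FPKM, a log2 fold change of -2.19 ± 0.19 with an edgeR adjusted p of 7.09e-15. WAT1, of the same family, exports auxin from the vacuole and fell from 128, 124 and 128 FPKM to 109, 109 and 111 FPKM, a log2 fold change of -0.25 ± 0.03. NPF6.3, the nitrate transporter that also carries auxin out of lateral root primordia, fell from 78.3, 75.8 and 77.6 FPKM to 66.1, 62.4 and 63.6 FPKM, a log2 fold change of -0.31 ± 0.03 with an edgeR adjusted p of 4.36e-13.

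Transcription factors of the NAC family with the term, NAC1, NAC074 and AT3G12977, were lower, as were 24.6% of all tested genes. They were grouped after their values had been seen, so nothing is read from their shared direction. NAC1, which promotes lateral roots downstream of TIR1, fell from 7.35, 8.3 and 8.22 FPKM to 5.73, 5.38 and 5.82 FPKM, a log2 fold change of -0.53 ± 0.08, with 35.3% of its length under another gene. NAC074 had a log2 fold change of -1.70 ± 0.30 at about 1 FPKM in WT, and AT3G12977 of -1.12 ± 0.17. GLIP2, a secreted lipase, had a log2 fold change of -1.15 ± 0.19. BT2, a scaffold protein of nutrient and hormone responses and the most abundant of the auxin signalling genes by FPKM in WT, fell from 228, 228 and 233 FPKM to 209.8, 208 and 211 FPKM, a log2 fold change of -0.18 ± 0.02. Its change was small beside its level, and its libraries did not overlap. Among the higher genes were MAX2, the F-box protein of strigolactone signalling (0.17 ± 0.06 on the log2 scale), and NDPK2, a nucleoside diphosphate kinase, from 203, 206 and 203 FPKM to 239.7, 234 and 231 FPKM. The small GTPases ARFA1C, ARFA1E and ARFA1F, which act in vesicle traffic and share only letters with the auxin response factors, had log2 fold changes of -0.17, -0.19 and -0.12, and 30.1% of ARFA1C lies under other genes.

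Among further terms shared by 8 or more tested auxin signalling genes, 4 chosen after their values were seen are given beside all tested genes of the same term. Of 8 auxin signalling genes annotated to gravitropism 1 was higher and 4 were lower, and among all 49 tested genes with that term 6 were higher and 23 lower. Of 10 annotated to vascular patterning in leaves 1 was higher and 5 lower, whereas among all 31 with that term 9 were higher and 7 lower. Of 9 annotated to auxin efflux 3 were higher and 5 lower, and of all 13 with that term 3 and 7. The 9 annotated to auxin synthesis, most of them SHI/STY genes, gave 5 higher and 2 lower, against an even 6 and 6 of all 23. Over all tested genes 20.9% were higher and 24.6% lower. These groups share members with the families above.

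Further genes of the pathway were taken as lists, most of them without the term. In auxin synthesis 15 of 20 genes were tested, 2 were higher, 4 lower and 9 did not pass. Beside them, 20.9% of all tested genes were higher and 24.6% lower. TAA1 (AT1G70560, chr1:26604855-26607652, plus strand), which makes the precursor indole-3-pyruvate, measured 5.88, 6.42 and 5.49 FPKM in WT and 14.97, 15.4 and 15.02 FPKM in phod2, a log2 fold change of 1.32 ± 0.08 (SE) with an edgeR adjusted p of 1.41e-20. YUC3, one of the enzymes for the next step and known from roots, had 50, 24 and 43 reads in WT and 9, 6 and 6 in phod2, a log2 fold change of -2.41 ± 0.34 with an edgeR adjusted p of 2.70e-08. The other YUCCA genes tested did not pass, with YUC2 at 0.45 ± 0.19 and YUC4 at 0.87 ± 0.39 on the log2 scale. NIT3, a nitrilase, fell from 17.7, 16.99 and 17.2 FPKM to 9.99, 9.89 and 10.6 FPKM, a log2 fold change of -0.81 ± 0.07.

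Auxin inactivation and release held 9 genes, of which 7 were tested and 2 were lower, where 24.6% of all tested genes were. The auxin oxidases DAO1 and DAO2 were not analysed here. IAMT1, which methylates auxin, fell from 1.81, 2.16 and 1.93 FPKM to 0.59, 0.42 and 0.92 FPKM, a log2 fold change of -1.62 ± 0.24 with an edgeR adjusted p of 6.84e-08. ILL3, an amidohydrolase, had a log2 fold change of -0.50 ± 0.15. The 7 genes of the SCF ubiquitin ligase and its RUB modification, which the receptors need, 3 of them with the term (ASK1, CUL1 and AXR1), did not pass edgeR in any case, nor at an unadjusted p of 0.05, with log2 fold changes between -0.10 and 0.05. Among the co-repressors that Aux/IAA proteins recruit, TPL rose from 45.6, 45.8 and 46.6 FPKM to 56.7, 56.96 and 54.1 FPKM (log2 fold change 0.24 ± 0.03), TPR1 and TPR4 fell by under 0.3 on the log2 scale, and TPR2 and TPR3 did not pass.

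Of 16 downstream genes of root patterning and lateral roots 14 were tested, 3 were higher, 4 lower and 7 did not pass. Among all tested genes 20.9% were higher and 24.6% lower. PLT1, PLT2 and LRP1 of this list carry the term, and LRP1, one of the higher genes, is also counted with the SHI/STY family. TMO7, a mobile target of ARF5, fell from 5.75, 5.39 and 5.85 FPKM to 1.5, 1.65 and 1.35 FPKM, a log2 fold change of -1.96 ± 0.20 with an edgeR adjusted p of 1.67e-12. TMO5, another target of ARF5 that acts in vascular divisions, fell from 9.8, 10.4 and 10.3 FPKM to 6.78, 7.61 and 6.57 FPKM, a log2 fold change of -0.58 ± 0.09. ARF5 was higher in the same libraries, and a link between these changes was not tested. LBD29, a direct target of ARF7 and ARF19, had 15, 15 and 14 reads in WT and 2, 5 and 11 in phod2, and its log2 fold change of -1.25 ± 0.46 passed edgeR with all libraries but not DESeq2 (adjusted p = 0.0769), and it was lost from edgeR without WT replicate 2 (adjusted p = 0.0798), phod2 replicate 1 (adjusted p = 0.14) or phod2 replicate 2 (adjusted p = 0.0764). PLT5 rose from 1.74, 1.55 and 1.34 FPKM to 2.66, 2.49 and 2.36 FPKM, a log2 fold change of 0.65 ± 0.14.

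**Figure D4:**
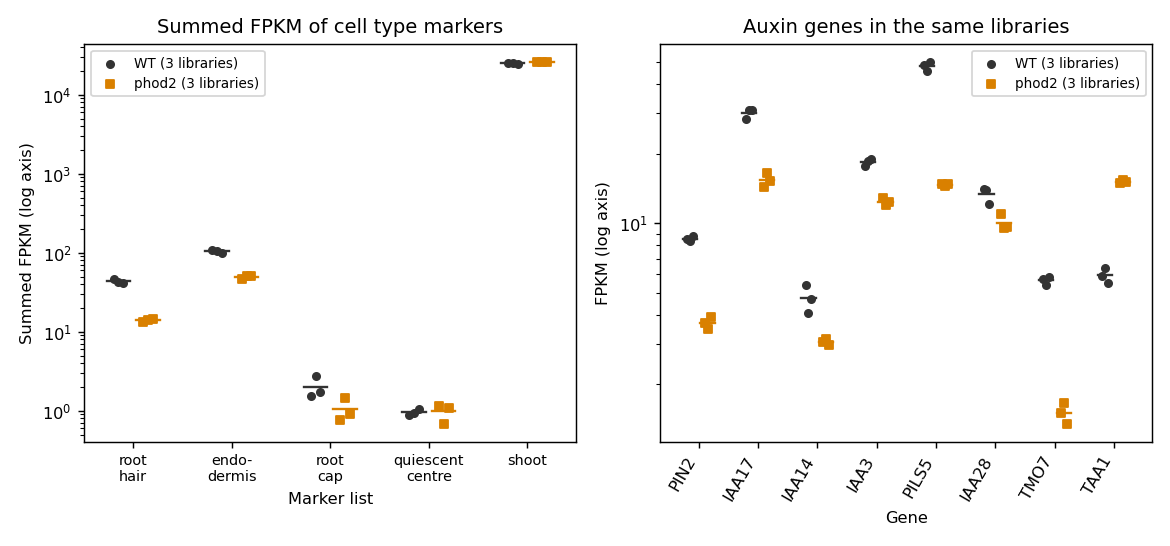
Left, summed FPKM of the root hair, endodermis, root cap, quiescent centre and shoot markers in each library. Right, FPKM of 8 auxin genes in the same libraries, both on log axes, with black circles for 3 WT and orange squares for 3 phod2 libraries and lines for means. The root hair and endodermis sums of phod2 lie below all of those of WT, as do PIN2, IAA17, IAA14, IAA3, PILS5, IAA28 and TMO7, while TAA1 lies above.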

How the data were processed

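RNA was sequenced from seedlings aged 8 days, in 3 WT and 3 phod2 libraries grouped by the genotype in the labels. The deposited table holds whole-number counts per gene and library, per the file headers. It also holds FPKM, per the file headers, and these deposited FPKM equal the count divided by exonic gene size and library total to within 0.005, the rounding of the file. Which aligner and counter were used, and whether reads were counted by strand, is not given in the sources used here. Per the submitters' processing notes the build was mm10, which is of the mouse, while the identifiers are of Arabidopsis. Of the 32833 identifiers 32536 have coordinates in the RefSeq annotation of TAIR10.1, and 32520 of these (99.95%) have the same start and end there, as do all 236 auxin signalling genes.

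Counts were tested with the 2-sided quasi-likelihood test of edgeR 4.0.16 under R 4.3.3, on the 20169 genes that filterByExpr kept, with TMM factors and genotype as the only term. P-values were adjusted by Benjamini-Hochberg over all tested genes. The 2-fold condition is that of the study. A standard error (SE) was obtained as the size of the log2 fold change over the root of its F statistic. Errors after FPKM means are SDs over 3 libraries. The labels do not say how plants were pooled, so p-values stand for the variation among these 6 libraries only, part of which may be technical. That variation was small, with a common coefficient of variation of 2.83% beyond counting noise between libraries of a genotype in edgeR.

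The genes and lists were chosen with earlier results of these data known. Families were assigned by symbol or synonym. The genes named are those with the largest changes past the test in each family and direction, the most abundant member, and listed receptors, ARF, PIN, IAA and GH3 genes. The result of 1 listed gene is not reported here. Other genes given with values were chosen after their values were seen. Near-identical transcripts were sought with blastn (BLAST 2.17.0), with a minimum identity of 95% and a minimum aligned share of 30%. Overlap with other genes came from the coordinates and is given where it exceeds 25% of a gene whose test is given by name. Sequences and motifs were read from RefSeq TAIR10.1. Alternatives used DESeq2 1.42.0, limma 3.58.1, other scalings, filters and pseudocounts, a replicate block and each library left out. Figures were drawn with matplotlib 3.10.9.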

Additional observations from a re-analysis of the deposited data

How the results depend on the processing

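With genes of at least 5 FPKM in 3 libraries, which leaves fewer genes to test, 31 auxin signalling genes were higher, 1 was 2-fold higher and 4 were 2-fold lower, and 1 ARF gene was lower, 1 PIN, 5 SAUR and 11 other members higher, and over all genes 88 were 2-fold higher and 422 lower. With limma on log2(FPKM + 1), which shrinks changes of low genes, 1 member was 2-fold higher and 4 lower, against 131 and 488 over all genes. Aux/IAA genes higher in phod2 numbered 5 with library totals alone and with limma at either pseudocount, 0.1 or 1, and lower ARF genes 1 with limma at either. With DESeq2 36 members were higher and 38 lower, against 3272 and 4143 over all tested genes, and 6 ARF and 6 SAUR genes were higher. Lower SAUR genes numbered 3 with DESeq2 and 3 to 6 with a library left out, and lower receptors 1 to 2 with a library left out. The cause was not tested. Fitted changes near 0 of genes that did not pass changed sign. AFB2 was at 0.0011 with DESeq2 size factors in edgeR, 0.0387 with library totals, 0.0147 with the upper quartile, 0.0293 and 0.0285 with limma at 0.1 and 1, and -0.0673 to 0.0684 with a library left out. PIN4 was at 0.0020 with DESeq2, 0.0018 with its size factors in edgeR, 0.0393 with library totals, 0.0155 with the upper quartile, 0.0409 and 0.0400 with limma at 0.1 and 1, and -0.0178 to 0.0261 with a library left out. ARF19 was at 0.0046 with library totals, 0.0002 and 0.0006 with limma at 0.1 and 1, and -0.0950 to 0.0310 with a library left out, where ARF10 ranged from -0.0111 to 0.0595. Of 55 named genes 54 kept both their sign and their side of the threshold with the replicate block, the exception being PID (log2 fold change 0.39, adjusted p = 0.0587). With DESeq2 49 kept both, 5 lost their call and 1 changed sign. With the replicate block 46 members were higher and 46 lower. The numbers do not pair the libraries, since deviations of libraries with the same number correlated at -0.0212, 0.0097 and -0.0078. Depth limits the genes under about 1 FPKM, where SAUR12, SAUR22 and LBD29 rest on few reads, and 44 members could not be tested.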
